A study of Mus musculus with 12 samples.

Results

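The acute phase reactants examined here are plasma and tissue proteins whose genes are switched on in liver during inflammation, and the set holds the 10 listed genes Saa1, Saa2, Saa3, Saa4, Orm1, Orm2, Lcn2, Lbp, Hp and Il1rn of the 24421 gene symbols in the deposited count table. Genes were chosen by name, with earlier results of these data known, and all 10 were found and passed the filter on low counts. RNA was sequenced from liver tissue without tumour of 12 male mice killed at 4 months of age, 3 in each of 4 groups: LiK on a normal diet, LiK on a diet with 0.06% ACR given from 5 weeks of age, and LiKM on either diet. ACR, acyclic retinoid, is a synthetic compound related to vitamin A. Mice on the normal diet are called untreated below. The labels do not spell out the alleles. From what is known of the study, both strains carry a Cre that is driven from the albumin promoter, and in LiKM mice this Cre is intended to delete Mdm2, whose product marks p53 for degradation. The LiK control is itself an engineered strain, and no wild-type mouse was analysed here.

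In textbook terms, interleukin-6 and related cytokines act through gp130 and STAT3, and interleukin-1 and tumour necrosis factor act through NF-kB and C/EBP factors, to raise acute phase genes in hepatocytes. Serum amyloid A proteins travel on high density lipoprotein, and Saa1 and Saa2 are the strongly inducible liver forms, Saa4 is the constitutive liver form, and Saa3 is made mostly outside hepatocytes in the mouse. Orosomucoids (Orm1, Orm2) bind drugs and lipids in plasma, haptoglobin (Hp) binds free haemoglobin, Lbp hands bacterial lipopolysaccharide to CD14, lipocalin 2 (Lcn2) withholds iron carried by bacterial siderophores, and Il1rn encodes the antagonist of the interleukin-1 receptor.

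Libraries held 10124813 to 18647156 counts, and TMM scaling factors, which correct for composition, ran from 0.83 to 1.243. Levels below are counts-per-million (CPM) on that scale, given as mean ± SD over 3 mice unless stated. Differences are log2 fold changes with their standard error (SE) from edgeR's quasi-likelihood test over 13880 genes, and "rose" or "fell" means a Benjamini-Hochberg adjusted p under 0.05. The hepatocyte list (8 genes, among them Alb, Apoa1 and Hnf4a) summed to 87945 to 166180 CPM with no gene at 0 in any library, as the label liver requires. Mdm2, counted over the whole gene, had 21.6 to 25.8 CPM in the 6 LiK libraries and was higher, 29.0 to 67.2 CPM, in the 6 libraries labelled LiKM. A count over the whole gene cannot show whether part of it was deleted. Genes of the circadian clock differed between libraries: the clock output gene Dbp had 25.6 to 35.9 CPM in untreated LiK, 136 to 139 CPM in ACR-fed LiK, 8.46 to 74.0 CPM in untreated LiKM and 3.25 to 15.4 CPM in ACR-fed LiKM. No source used here states at what hour the mice were killed.

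The Saa genes lie side by side on mouse chromosome 7 (mm10), all protein coding. Saa3 spans 46711998 to 46715700, Saa4 46727998 to 46732603 and Saa1 46740497 to 46742980 on the minus strand, and Saa2 spans 46751790 to 46754313 on the plus strand, 8.81 kb from Saa1. Orm1 (63344560 to 63348163) and Orm2 (63362449 to 63365878) lie on the plus strand of chromosome 4 with Orm3 between them. Lcn2 (32384633 to 32388252, minus strand), Lbp (158306493 to 158332852) and Il1rn (24336853 to 24351494) are on chromosome 2, and Hp (109575128 to 109579172, minus strand) is on chromosome 8. RefSeq promoters (GRCm38.p6, the mm10 assembly; 250 bases before to 50 bases after a start) were at hand for 7 of the 10 genes. The windows below are shown because Saa1 and Saa2 moved together across livers while Saa3 did not, and because Lcn2 and Il1rn passed the test. Capitals mark matches to motifs searched on both strands: TTGCNNAA for C/EBP factors, GGNNTTNCC for NF-kB, TTCNNNGAA for STAT factors and CTGGGA for the core of the interleukin-6 response element. No motif overlapped another in these windows.
Saa1, chr7:46742931-46743230, minus strand: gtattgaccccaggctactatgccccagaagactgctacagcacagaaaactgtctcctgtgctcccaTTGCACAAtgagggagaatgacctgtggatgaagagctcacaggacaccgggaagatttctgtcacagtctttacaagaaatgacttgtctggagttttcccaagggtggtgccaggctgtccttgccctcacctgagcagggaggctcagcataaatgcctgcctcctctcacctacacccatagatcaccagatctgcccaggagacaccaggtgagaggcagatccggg
Saa2, chr7:46751583-46751882, plus strand: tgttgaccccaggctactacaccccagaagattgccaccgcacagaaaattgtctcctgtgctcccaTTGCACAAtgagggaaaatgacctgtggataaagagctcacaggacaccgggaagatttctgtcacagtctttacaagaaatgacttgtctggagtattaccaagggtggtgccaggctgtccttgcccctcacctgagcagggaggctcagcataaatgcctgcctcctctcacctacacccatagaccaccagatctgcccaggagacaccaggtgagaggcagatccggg
Saa3, chr7:46715627-46715926, minus strand: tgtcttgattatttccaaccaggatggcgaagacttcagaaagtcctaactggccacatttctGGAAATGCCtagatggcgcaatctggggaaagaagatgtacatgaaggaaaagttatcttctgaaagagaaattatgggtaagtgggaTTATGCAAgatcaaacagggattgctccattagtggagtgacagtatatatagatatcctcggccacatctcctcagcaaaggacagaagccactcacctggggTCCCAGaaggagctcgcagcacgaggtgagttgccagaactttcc
Lcn2, chr2:32387690-32387989, minus strand: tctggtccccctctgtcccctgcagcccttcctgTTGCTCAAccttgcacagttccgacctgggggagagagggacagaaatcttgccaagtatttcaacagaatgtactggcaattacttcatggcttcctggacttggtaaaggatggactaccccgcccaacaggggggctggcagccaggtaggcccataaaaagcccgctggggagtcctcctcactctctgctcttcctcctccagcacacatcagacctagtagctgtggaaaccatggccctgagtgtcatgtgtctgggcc
Il1rn, upstream start, chr2:24336610-24336909, plus strand: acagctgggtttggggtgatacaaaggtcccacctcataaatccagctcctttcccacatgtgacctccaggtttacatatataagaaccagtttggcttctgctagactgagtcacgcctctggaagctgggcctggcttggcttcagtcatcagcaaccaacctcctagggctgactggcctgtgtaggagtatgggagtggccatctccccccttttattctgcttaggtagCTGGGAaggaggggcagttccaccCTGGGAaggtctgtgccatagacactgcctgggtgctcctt
Il1rn, the most downstream of 3 starts, chr2:24345121-24345420, plus strand: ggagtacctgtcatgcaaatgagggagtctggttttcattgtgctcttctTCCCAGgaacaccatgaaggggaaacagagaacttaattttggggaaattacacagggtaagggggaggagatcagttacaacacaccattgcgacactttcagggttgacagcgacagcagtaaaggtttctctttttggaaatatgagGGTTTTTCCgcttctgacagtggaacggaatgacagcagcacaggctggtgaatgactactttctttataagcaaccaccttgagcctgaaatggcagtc

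The Saa1 and Saa2 windows were identical at 287 of 300 bases (95.7%) in a global alignment, while Saa1 and Saa3 shared 64.0%. The C/EBP letters occurred in 6 of the 7 genes with a promoter, in Saa1 182 and in Saa2 183 bases before the start, and Il1rn was the exception. They occurred in 10.8% of all 32851 promoters of the same length. NF-kB letters occurred in Saa3 and Il1rn (16.0% of all promoters), the interleukin-6 core in Saa3 and Il1rn (31.8%) and the STAT letters in none of the 7 (8.3%). A match describes the letters only.

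Expressed per kilobase of exon (GENCODE M21, since no source used here names the annotation behind the counts), the median level over the 12 libraries was highest for Hp, 1829 CPM per kb, followed by Orm1 at 927 and Saa4 at 138 CPM per kb. The ranges of these 3 genes did not overlap (1442 to 3074, 629 to 1395 and 51.0 to 242 CPM per kb). Orm2 (median 51.7 CPM per kb), Saa1 (42.5), Lcn2 (24.5), Saa2 (16.7) and Lbp (11.7) came next, with ranges that overlapped from each to the next. Saa3 (1.36 CPM per kb) and Il1rn (1.27 CPM per kb) were lowest and overlapped each other, and their highest values (2.39 and 2.38 CPM per kb) lay below the lowest of every other gene. Together the 10 genes took 0.293% (untreated LiK mouse 1) to 0.766% (ACR-fed LiKM mouse 1) of all counts in a library.

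**Figure D1:**
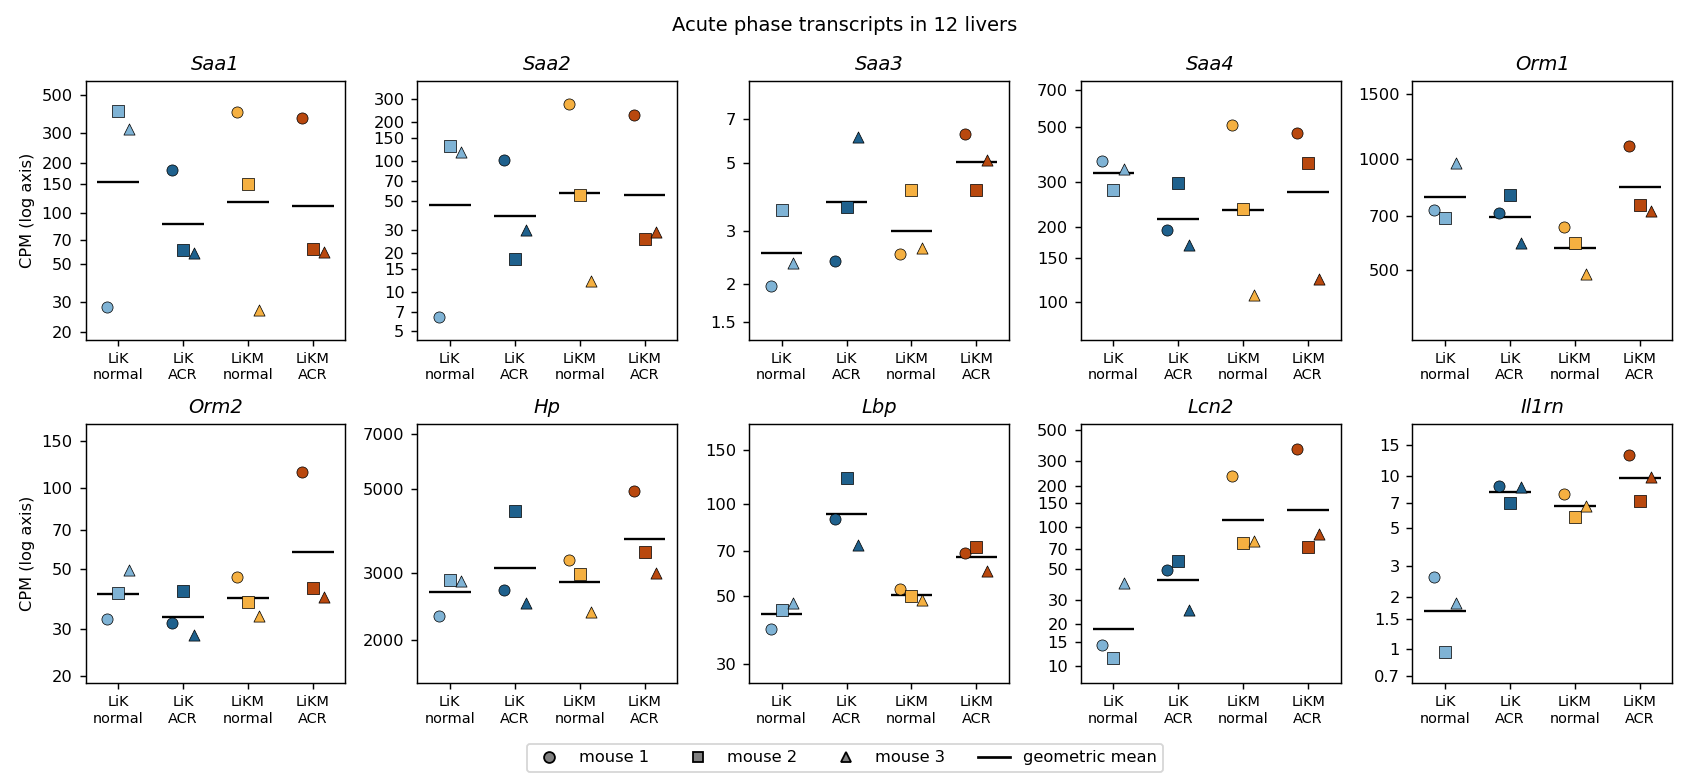
Level of each gene in each of 12 livers, in CPM on a log axis, by strain and diet, with the mouse number as the symbol and the geometric mean as a line. Saa1 and Saa2 spread over 15.1-fold and 42.2-fold across livers without parting the groups, while Il1rn is lowest in untreated LiK mice, 0.962 to 2.61 CPM.

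The inducible serum amyloids varied widely between mice of 1 group. Saa1 had 27.9, 405 and 314 CPM in untreated LiK mice 1, 2 and 3 and 180, 60.7 and 58.4 CPM on ACR. Among LiKM mice Saa1 stood at 401, 149 and 26.9 CPM untreated and 368, 61.4 and 59.4 CPM on ACR. Each group thus held at least 1 high and 1 low liver, and all groups overlapped. Saa2 followed Saa1, with 6.48, 131 and 117 CPM in untreated LiK, 102, 17.8 and 29.6 CPM in ACR-fed LiK, 274, 54.7 and 12.2 CPM in untreated LiKM and 227, 25.6 and 28.5 CPM in ACR-fed LiKM. Within a group the highest mouse exceeded the lowest 3.08-fold to 14.9-fold for Saa1 and 5.73-fold to 22.3-fold for Saa2. The SD of log2 CPM within groups was 1.98 for Saa2 and 1.7 for Saa1, against a median of 0.191 over the 9745 genes with a mean of at least 5 CPM, and 7 and 12 of those genes had a larger one. Neither gene passed in any comparison, with SEs of 1.1 to 1.9 on the log2 scale.

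**Figure D2:**
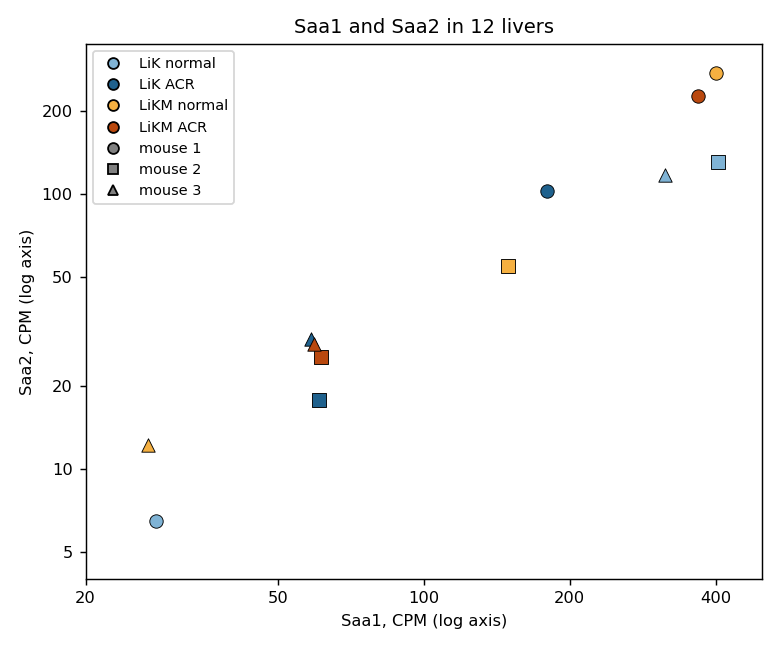
Saa1 against Saa2 in the 12 livers, both in CPM on log axes, coloured by group and with the mouse number as the symbol. The livers lie along 1 line from 27.9 and 6.48 CPM (untreated LiK mouse 1) to 401 and 274 CPM (untreated LiKM mouse 1), and no group keeps to one end of it.

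Across the 12 livers the log2 CPM of Saa1 and Saa2 correlated with Pearson's r = 0.97 (permutation p = 1e-05, the smallest that 100000 resamples can give, adjusted p = 0.00045 over 45 pairs of the 10 genes) and Spearman's rho = 0.909 (permutation p = 0.00012, adjusted p = 0.0054). It was r = 0.966 within the 6 LiK livers, 0.99 within the 6 LiKM livers, and 0.97 without the 2 livers farthest from the median of Saa1. The pair shares reads: 31.1% of the 50-base stretches of Saa1 transcripts also occur in Saa2 transcripts, and counts that are not whole appeared in 6 of 12 libraries for Saa1 and 7 of 12 for Saa2, so their separate levels are uncertain. Saa1 held 59.5% (untreated LiKM mouse 1) to 81.1% (untreated LiK mouse 1) of the summed counts of both. Its share was 76.5 ± 4.22% in untreated LiK, 69.2 ± 7.16% in ACR-fed LiK, 67.1 ± 6.94% in untreated LiKM and 66.7 ± 4.42% in ACR-fed LiKM, so that every untreated LiK liver lay above every ACR-fed LiKM liver (72.8 to 81.1% and 61.9 to 70.6%) while the other pairs of groups overlapped. This difference was not tested.

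Of the other 44 pairs, only Orm2 with Hp passed by Pearson's r, and it did not pass by rank. For Orm2 and Hp r was 0.793 (permutation p = 0.0018, adjusted p = 0.0405) and rho 0.748 (permutation p = 0.00706, adjusted p = 0.159), and r was 0.509 within LiK, 0.942 within LiKM and 0.556 without the 2 livers farthest from the median of Orm2, so the relation rests largely on those. For Saa1 with Saa3 r was 0.0479 (permutation p = 0.88, adjusted p = 0.949) and rho -0.021 (permutation p = 0.957, adjusted p = 0.991). Within the 6 LiKM livers all 45 pairs had r above 0 (median 0.679), against 27 of 45 within the 6 LiK livers (median 0.131). In LiKM 1 mouse number stood out on both diets: untreated LiKM mouse 1 was the highest of its group for 9 of 10 genes, all but Saa3, and ACR-fed LiKM mouse 1 was the highest of its group for 9 of 10, all but Lbp. ACR-fed LiKM mouse 1 was also the highest of all 12 libraries for 6 of the 10 genes.

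The constitutive form Saa4 had 366, 279 and 340 CPM in untreated LiK and 195, 298 and 169 CPM on ACR. Among LiKM livers Saa4 stood at 506, 234 and 107 CPM untreated and 473, 358 and 123 CPM on ACR. The LiKM livers of either diet spread more widely than the LiK livers, 4.74-fold and 3.84-fold against 1.31-fold and 1.76-fold. Saa4 passed in none of the comparisons of this design. Saa3, read from as few as 27.5 counts in a library, ran from 1.97 to 3.51 CPM in untreated LiK, 2.38 to 6.11 CPM in ACR-fed LiK, 2.52 to 4.09 CPM in untreated LiKM and 4.07 to 6.22 CPM in ACR-fed LiKM. Its diet difference was log2 0.61 (SE 0.36) in LiK and 0.74 (SE 0.35) in LiKM, and neither passed (edgeR adjusted p = 0.46 and 0.699).

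Untreated LiKM were set against untreated LiK mice to compare the strains before the drug. Lcn2 and Il1rn were higher in LiKM, and the classical plasma reactants were not shown to differ. Lcn2 had 14.2, 11.4 and 39.8 CPM in LiK and 235, 77.8 and 79.2 CPM in LiKM, so that every LiKM liver lay above every LiK liver. Il1rn had 2.61, 0.962 and 1.84 CPM in LiK and 7.80, 5.78 and 6.68 CPM in LiKM, again without overlap. Lcn2 rose 6.04-fold, with log2 2.59, SE 0.78 and an edgeR adjusted p of 0.0401. Il1rn rose 3.8-fold, with log2 1.92, SE 0.32 and an edgeR adjusted p of 0.0024. In bulk tissue, more cells of a type and more RNA per cell cannot be told apart.

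These 2 were 2 of 10 genes called on the normal diet, against 21.8% of all genes tested (13.2% higher and 8.61% lower in LiKM), so the share called was close to that of all genes. The median log2 fold change of the 10 was 0.15, against 0.02 over all genes. The groups did not overlap for 4 of 10 (Lcn2, Il1rn, Lbp and, lower in LiKM, Orm1), against 40.1% of all genes (20.7% higher and 19.4% lower). Orm1 had 727, 692 and 976 CPM in LiK and 655, 594 and 487 CPM in LiKM (log2 -0.46, SE 0.2, edgeR adjusted p = 0.118). Hp had 2316, 2884 and 2854 CPM in LiK and 3251, 2992 and 2371 CPM in LiKM (log2 0.1, SE 0.25, edgeR adjusted p = 0.817). Orm2 differed by log2 -0.06 (SE 0.37) and Lbp by 0.2 (SE 0.16, edgeR adjusted p = 0.406).

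The Il1rn difference kept its call in every alternative tried. The Lcn2 call ended without untreated LiK mouse 1 (edgeR adjusted p = 0.125) or 2 (0.117), ACR-fed LiK mouse 1 (0.0567) or 2 (0.0538), or untreated LiKM mouse 1 (0.128) or 3 (0.0578), with log2 values of 1.86 to 2.83. It also ended with no filter on low counts (edgeR adjusted p = 0.0772), with the identifier prefix of the mice, KM or MP, as a covariate (0.162) and with the replicate block over all 12 libraries (0.0628), and it held without untreated LiKM mouse 1 and ACR-fed LiKM mouse 1 together. With library size alone as scaling, which moved the median of all genes to 0.4, Lbp also passed (log2 0.58, edgeR adjusted p = 0.0145).

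Some markers of other cells that can make Lcn2 and Il1rn differed between the untreated strains, where 21.8% of all genes passed (13.2% higher). The biliary list summed to 35.2 to 52.3 CPM in LiK and 598 to 1042 CPM in untreated LiKM, and all 7 of its genes rose, with a median log2 of 4.4 (0.02 over all genes), led by Cd24a, Krt19 and Cftr. The neutrophil list summed to 2.47 to 5.77 CPM in LiK, with 2 to 5 genes at 0, and 11.6 to 18.9 CPM in LiKM, and 3 of its 6 tested genes rose (S100a9, Csf3r and S100a8, log2 2.34, 1.34 and 2.97). Granule genes of this list had few counts. In mice 1, 2 and 3, Ltf had 0, 0 and 0 counts in untreated LiK and 6, 1 and 12 in untreated LiKM. Camp had 0, 0 and 1 counts in LiK and 0, 0 and 7 in LiKM. Ngp had 1, 3 and 0 counts in LiK and 1, 1 and 29 in LiKM, so Camp and Ngp overlapped between the strains. Of the genes tested, Cxcr2 (log2 0.05), Mpo (3.23) and Ngp (2.98) did not pass. Of 12 macrophage and monocyte genes 2 rose, Ccr2 and Itgam (log2 2.14 and 1.72), and the summed level overlapped between the strains, 160 to 327 CPM in LiK and 205 to 408 CPM in LiKM. In the adipocyte list Fabp4 rose (log2 1.06), the 1 gene tested, and of 3 mesothelial genes tested none passed. The hepatocyte sum was 120227 to 166180 CPM in LiK and 87945 to 103055 CPM in LiKM, with 0 of 8 genes above 0 on the log2 scale (median -0.59) and none past the threshold. In untreated LiKM mice 1, 2 and 3 the biliary sum was 598, 774 and 1042 CPM and the neutrophil sum 11.6, 12.3 and 18.9 CPM. The macrophage and monocyte sum was 334, 408 and 205 CPM in these mice. Mouse 1 had the highest Lcn2 and Il1rn of this group and its lowest biliary and neutrophil sums, but single genes ordered the mice differently. Spp1, with 703 ± 212 CPM in this group, made up most of the biliary sum. Krt19 had 11.5, 8.88 and 11.1 CPM in mice 1, 2 and 3, highest in mouse 1. S100a8 had 1.86, 1.27 and 2.39 CPM, lowest in mouse 2, and Ngp 0.06, 0.0704 and 2.31 CPM, lowest in mouse 1. The part of these cells in the Lcn2 and Il1rn results was not tested.

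**Figure D3:**
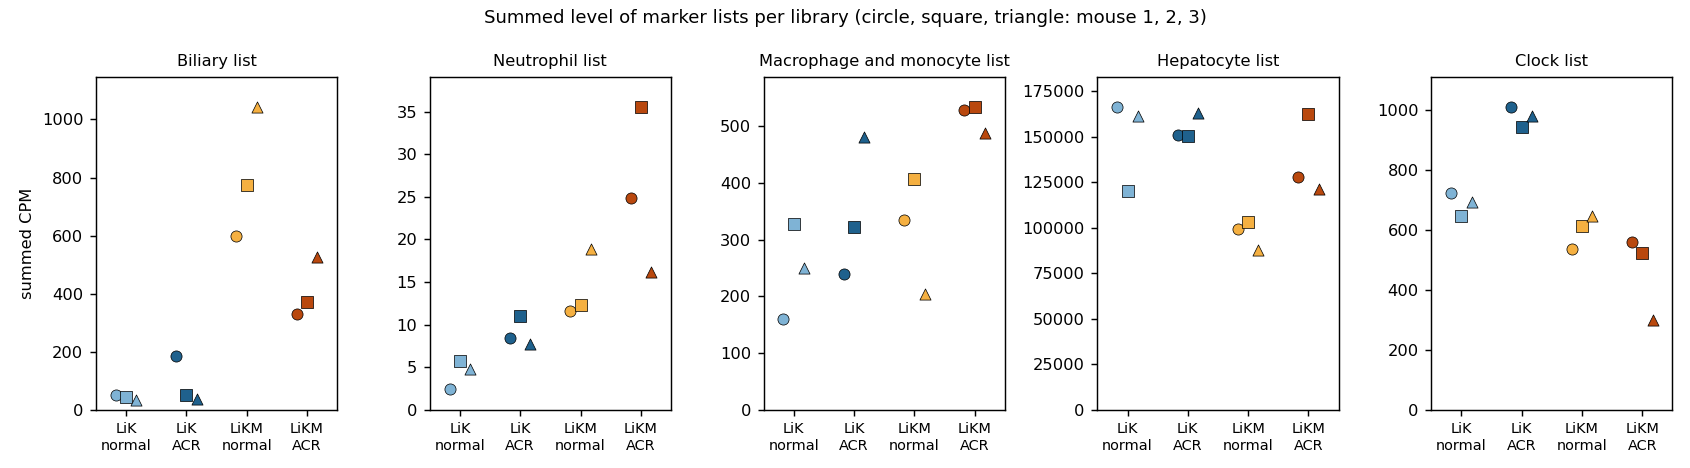
Summed CPM of 5 gene lists in each library, by strain and diet, each panel starting at 0, with the mouse number as the symbol. Biliary sums part the strains (35.2 to 187 CPM in LiK, 332 to 1042 CPM in LiKM), and clock sums are highest in ACR-fed LiK (943 to 1008 CPM). Neutrophil sums reach 35.5 CPM in ACR-fed LiKM (16.2 to 35.5 CPM), which overlaps untreated LiKM (11.6 to 18.9 CPM).

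Upstream of the reactants, 4 of 14 cytokines and receptors and 4 of 17 signalling genes passed between the untreated strains, shares near the 21.8% of all genes, and interleukin-6 itself was barely counted. Il6 had 3 counts in ACR-fed LiKM mouse 1, 1 in untreated LiKM mouse 1, 1 in ACR-fed LiK mouse 3 and 0 in the other libraries, and it did not pass the filter. Of the cytokines and receptors 3 rose and 1 fell: the oncostatin M receptor Osmr (5.09-fold, edgeR adjusted p = 0.00113), the interleukin-10 receptor chain Il10rb and the cytokine Lif (edgeR adjusted p = 0.0115 for both) rose, and the interleukin-1 receptor partner Il1rap fell by 0.69 on the log2 scale. Of the signalling genes and factors 4 rose: Nfkb2 went from 5.89 ± 0.653 to 16.5 ± 2.69 CPM, Relb rose by log2 3.21, Nfkbiz by 0.86 and Nfkb1 by 0.41. Other genes of the NF-kB system in this list did not pass: Rela (log2 0.36, edgeR adjusted p = 0.109), Bcl3 (0.32, edgeR adjusted p = 0.476) and the inhibitor Nfkbia (0.02, edgeR adjusted p = 0.966). Stat3 (log2 0.14), Socs3 (0.81), Cebpb (-0.16), Il1b (0) and the interleukin-6 receptor Il6ra (-0.82) did not pass.

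Few of the other acute phase genes passed between the untreated strains, where 21.8% of all genes did (13.2% higher and 8.61% lower in LiKM). Of 19 further positive reactants tested of 20 listed, 1 rose, the NF-kB adaptor Tifa (3-fold, edgeR adjusted p = 0.011), and 1 fell, the iron hormone hepcidin, Hamp, from 776 ± 149 to 303 ± 115 CPM (edgeR adjusted p = 0.00594), with a median log2 of -0.19. Of 10 negative reactants, plasma proteins that drop in inflammation, 1 fell and none rose (median -0.26). Among 12 receptors for the reactants 3 rose and 1 fell. Cd14, which takes lipopolysaccharide from Lbp, went from 1.78 ± 0.385 to 7.58 ± 1.04 CPM (log2 2.07, edgeR adjusted p = 0.00203), and Slc22a17, a receptor for lipocalin 2, from 1.15 ± 0.215 to 4.57 ± 2.76 CPM (edgeR adjusted p = 0.0107). Tlr2 rose by log2 1.06, and megalin, Lrp2, which also takes up lipocalin 2, fell from 6.68 ± 2.32 to 1.98 ± 0.897 CPM (edgeR adjusted p = 0.0411). Of 8 glucocorticoid response genes none rose and 1, the receptor Nr3c1, fell (log2 -0.53).

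**Figure D4:**
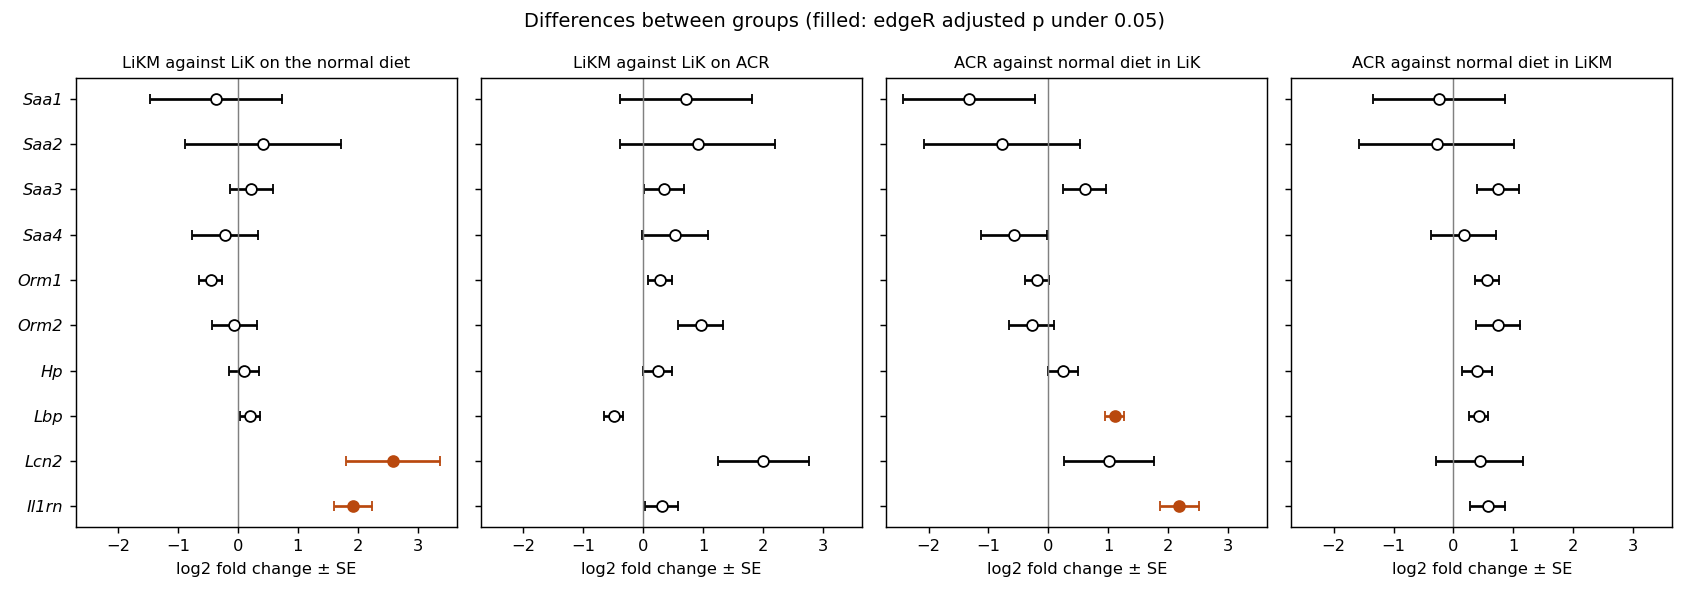
Log2 fold change of each gene with its SE in 4 comparisons, filled where the edgeR adjusted p was under 0.05. Only Lcn2 and Il1rn pass on the normal diet between strains and only Lbp and Il1rn between diets in LiK.

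The diet comparison in LiK asks what the retinoid does in that strain, and here Il1rn and Lbp rose. Il1rn went from 2.61, 0.962 and 1.84 CPM on the normal diet (37, 17 and 22 counts) to 8.73, 6.99 and 8.64 CPM on ACR (121, 105 and 126 counts). Lbp went from 39.0, 45.1 and 47.5 CPM to 89.4, 121 and 73.2 CPM. Neither gene's groups overlapped. The rise of Il1rn was 4.56-fold, with log2 2.19, SE 0.32 and an edgeR adjusted p of 0.0201. That of Lbp was 2.16-fold, with log2 1.11, SE 0.16 and an edgeR adjusted p of 0.02. By unadjusted p they ranked 14 and 12 among the 13880 genes tested.

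The 2 calls stood among 27 over all genes, 0.195% of those tested (0.13% higher and 0.0648% lower on ACR), against 2 of the 10 genes, which were chosen with earlier results known. That share depends on the fit, with 397 genes called by DESeq2 and 701 with the replicate block within LiKM. The groups did not overlap for 2 of 10, against 28.1% of all genes (13.4% higher and 14.6% lower). Of the 10 genes 5 lay above 0, as did 7115 of all 13880, with a median of 0.03 against 0.01 over all genes. Lcn2 had 14.2, 11.4 and 39.8 CPM untreated and 49.6, 57.0 and 25.2 CPM on ACR, which overlapped (log2 1.02, SE 0.75, edgeR adjusted p = 0.566). Orm1 (log2 -0.19, SE 0.2), Orm2 (-0.28, SE 0.37) and Hp (0.25, SE 0.25) did not pass.

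Both calls in LiK were lost in some fits with 1 library left out, while the fold changes moved little. The Il1rn call ended without untreated LiK mouse 2 (edgeR adjusted p = 0.0845) or 3 (0.124) or ACR-fed LiK mouse 1 (0.102), 2 (0.0557) or 3 (0.0747), at log2 values of 1.85 to 2.28. The Lbp call ended without untreated LiK mouse 1 (edgeR adjusted p = 0.0961), 2 (0.0845) or 3 (0.104) or ACR-fed LiK mouse 1 (0.0799), at log2 values of 1.03 to 1.17. Over all genes 0 passed without untreated LiK mouse 2, untreated LiK mouse 3 or ACR-fed LiK mouse 1. With the identifier prefix as a covariate Il1rn had log2 1.96 (edgeR adjusted p = 0.0587) and Lbp 1.11 (0.0611). All 3 LiK mice on ACR but only mouse 1 of untreated LiK mice have the prefix KM, so that within KM the comparison has 1 untreated mouse (2.61 CPM for Il1rn and 39.0 CPM for Lbp) and no replicate check. The part of the prefix in these results was not tested beyond that fit.

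The 3 LiK livers on ACR also differed from those on the normal diet in other measures. Dbp stood at 136 to 139 against 25.6 to 35.9 CPM (log2 2.14, edgeR adjusted p = 0.235), the neutrophil sum at 7.68 to 11.0 against 2.47 to 5.77 CPM, while the macrophage and monocyte sums overlapped, 240 to 481 and 160 to 327 CPM. No gene of the neutrophil, macrophage, biliary or clock list passed in this comparison, and the part of these differences in the Il1rn and Lbp results was not tested. Of the pathway lists none had a member past the threshold. The NF-kB subunits Nfkb2 (log2 0.95, edgeR adjusted p = 0.0621) and Relb (2.02, edgeR adjusted p = 0.0817), Cd14 (1.08, edgeR adjusted p = 0.205) and Il6ra (49.3 ± 4.14 and 24.3 ± 3.77 CPM, log2 -1.02, edgeR adjusted p = 0.356) did not pass.

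In LiKM the same diet comparison called none of the 10 genes. By edgeR 0 of 13880 genes passed (0%), 1005 had an unadjusted p under 0.05 (2 of the 10, Orm1 and Lbp, among them), and DESeq2 called 79 genes and 0 of the 10. Il1rn had 7.80, 5.78 and 6.68 CPM untreated and 13.2, 7.12 and 9.88 CPM on ACR, which overlapped (log2 0.57, SE 0.29, edgeR adjusted p = 0.744). Within the same-numbered mice, which deviate together in LiKM, Il1rn was higher on ACR in 3 of 3 pairs, as were Orm1, Orm2, Lbp and Hp. Saa3, Saa4 and Lcn2 were higher in 2 of 3 pairs and Saa1 and Saa2 in 1 of 3. How many of all genes were higher in 3 of 3 pairs was not counted. With the replicate block within LiKM, Il1rn differed by log2 0.55 (SE 0.243, edgeR adjusted p = 0.451). Lbp had 52.7, 49.9 and 48.3 CPM and 69.0, 72.4 and 60.1 CPM, without overlap (log2 0.42, SE 0.16, edgeR adjusted p = 0.556). Orm1 went from 655, 594 and 487 CPM to 1081, 752 and 721 CPM, also without overlap (log2 0.56, SE 0.2, edgeR adjusted p = 0.527). For the other 8 genes the groups overlapped, and 10.6% of all genes had groups that did not (3.94% higher and 6.7% lower). Of the 10 genes 8 lay above 0, as did 6612 of all 13880, with a median of 0.43 against -0.01 over all genes.

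Whether ACR acted differently in the strains is asked by the difference of the diet effects. It was log2 -1.61 for Il1rn (SE 0.43, edgeR adjusted p = 0.225), -0.69 for Lbp (SE 0.23, edgeR adjusted p = 0.297), 0.74 for Orm1 (SE 0.28, edgeR adjusted p = 0.359) and 1.02 for Orm2 (SE 0.52, edgeR adjusted p = 0.485). None of the 10 passed by edgeR, where 0.0072% of all genes passed. An unadjusted p under 0.05 was found for 3 of the 10 and for 1593 of all 13880 genes. DESeq2 called Il1rn (log2 -1.62, DESeq2 adjusted p = 0.0338).

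On the ACR diet the strains differed in none of the 10 genes by edgeR, where 9.79% of all genes passed (5.55% higher and 4.24% lower in LiKM). Lcn2 had 49.6, 57.0 and 25.2 CPM in LiK and 369, 71.7 and 90.2 CPM in LiKM, with all LiKM livers above all LiK livers (4.03-fold, log2 2.01, SE 0.76, edgeR adjusted p = 0.117). Lbp went the other way without overlap, 89.4, 121 and 73.2 CPM in LiK and 69.0, 72.4 and 60.1 CPM in LiKM (log2 -0.49, SE 0.16, edgeR adjusted p = 0.0704). Il1rn had 8.73, 6.99 and 8.64 CPM in LiK and 13.2, 7.12 and 9.88 CPM in LiKM (log2 0.31, SE 0.28, edgeR adjusted p = 0.515). Orm2 had 31.4, 41.4 and 28.3 CPM in LiK and 115, 42.4 and 39.4 CPM in LiKM (log2 0.96, SE 0.37, edgeR adjusted p = 0.119). The Lcn2 and Orm2 values rested on ACR-fed LiKM mouse 1: without it, Lcn2 differed by log2 0.88 (edgeR adjusted p = 0.431) and Orm2 by 0.28 (edgeR adjusted p = 0.439). The groups did not overlap for 2 of 10 genes (33.3% of all genes, 17.2% higher and 16.0% lower). Above 0 lay 9 of the 10 genes and 7275 of all 13880, and the median was 0.44 against 0.02 over all genes. Without ACR-fed LiKM mouse 1, Saa1 differed by log2 -0.73, Saa2 by -0.88 and Hp by 0.00, while the others kept their direction.

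Of the 10 genes 3 had an unadjusted p under 0.05 on ACR by edgeR, as had 3825 of all 13880 genes, and other fits called some. DESeq2 called Lbp (DESeq2 adjusted p = 0.0433). The replicate block within LiKM, whose same-numbered mice deviate together, sets the level of each LiKM group at the fitted level of its mouse 1. Its strain values thus compare LiKM mouse 1 with the LiK mice and do not estimate the strain difference. In that fit Lcn2 (log2 2.88, edgeR adjusted p = 0.0207), Orm2 (1.46, edgeR adjusted p = 0.0119) and Saa4 (1.28, edgeR adjusted p = 0.013) passed, among 2034 of all genes. Without untreated LiKM mouse 3, ACR-fed LiKM mouse 2 and ACR-fed LiKM mouse 3, whose clock genes stand apart, Orm2 passed (1.76, edgeR adjusted p = 0.0144), with ACR-fed LiKM mouse 1 then the only LiKM mouse on ACR and assumed to vary like the other groups. Lbp passed without ACR-fed LiK mouse 3 (-0.66, edgeR adjusted p = 0.0323).

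Beside these values, all 7 biliary genes rose in ACR-fed LiKM, with a median log2 of 2.17 (0.02 over all genes), led by Sox9, Cftr and Cd24a, and the biliary sum was 36.8 to 187 CPM in LiK and 332 to 527 CPM in LiKM. Of all genes tested 9.79% passed here (5.55% higher and 4.24% lower). Of 6 neutrophil genes tested 3 rose, S100a9, Csf3r and S100a8 (log2 1.73, 1.1 and 1.71), while Cxcr2 (0.6), Mpo (0.94) and Ngp (2.37) did not pass. Of 12 macrophage and monocyte genes 1 rose, Ccr2 (2.1). Fabp4 rose (0.74), the 1 adipocyte gene tested, and none of 3 mesothelial genes passed. Of 13 clock genes 2 rose, Arntl (log2 4.27) and Npas2 (4.86), and 3 fell, Nr1d2 (-1.88), Dbp (-4.21) and Ciart (-3.08). In ACR-fed LiKM mice 1, 2 and 3 the biliary sum was 332, 371 and 527 CPM and the neutrophil sum 24.9, 35.5 and 16.2 CPM. Lcn2 stood at 369, 71.7 and 90.2 CPM in these mice. The part of these differences in the Lcn2, Lbp and Orm2 values was not tested. Of 14 cytokines and receptors 2 rose, Lif (log2 2.85) and Osmr (1.39). Of 17 signalling genes 1 rose, Nfkb1 (0.36), and 1 fell, the liver factor Cebpa (-1.05). Of 12 receptors for the reactants 1 rose, Cd14 (1.42). None of the 19 further positive reactants, the 10 negative ones or the 8 glucocorticoid response genes passed.

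The genes whose pattern over the 12 livers was most like the mean of the 10, by Pearson's r of log2 CPM among 9422 genes with a mean of at least 5 CPM, predicted genes left out, were Fgl1, Lrg1, Chid1, C3, Itih3, Adgrl2, Snx5, Ltv1, Rplp0 and Mknk1. Their r ran from 0.777 to 0.85, a description over libraries that share strain and diet, given without a p. Each of these 10 was highest in ACR-fed LiKM mouse 1. The mean they were picked to follow, of standardised log2 CPM, was itself highest in that mouse (1.54, next 0.48 in untreated LiKM mouse 1). Their peak there is therefore largely set by the way they were picked. Fgl1, a liver-secreted fibrinogen-like protein, had 155 CPM in untreated LiK mouse 1 and 866 CPM in ACR-fed LiKM mouse 1, and Lrg1, a leucine-rich plasma glycoprotein, 303 CPM in untreated LiK mouse 2 and 789 CPM in ACR-fed LiKM mouse 1. The complement protein C3 ran from 3478 to 10681 CPM and the inter-alpha-trypsin inhibitor chain Itih3 from 529 to 1228 CPM, both lowest in untreated LiKM mouse 3.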

How the data were processed

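RNA from 12 livers, 3 mice in each of 4 groups by strain and diet as titled, was made into libraries with a stranded poly(A) kit, per the labels' protocols. The authors deposited expected counts, 1 value per gene symbol and library, of which 18.9% of those above 0 are not whole (tolerance 1e-09). Counting used featureCounts 2.0.0 and the build was mm10, per the submitters' processing notes. No source used here gives the aligner, annotation, strand setting or treatment of shared reads. Counts were rounded to whole numbers, filtered with filterByExpr (13880 genes kept) and scaled with TMM. The main test was edgeR 4.0.16 (quasi-likelihood, robust), fitted to the 12 libraries together with a coefficient for each group, Benjamini-Hochberg over all genes tested of a comparison, threshold 0.05. Log2 CPM has a prior count of 2. Alternatives used DESeq2 1.42.0, library size alone, no filter, counts rounded down, the identifier prefix, replicate blocks, and each library left out. Another summed related genes (Saa1 with Saa2, Orm1 with Orm2 and Orm3), and the sum then stood for each gene in it. The test was checked on simulated data.

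The genes and lists were chosen with earlier results of these data known. The text names all 10 genes, up to 3 genes of smallest p per list among those that passed, and 6 upstream genes; further genes were named after their values were seen, and 1 gene that the rule picks is not reported here. Counts of mice of 1 group differed by more than sampling noise in each pair (chi-square over its degrees of freedom 16.7 to 69.2). Orm1 and Orm2 had counts that are not whole in 11 and 10 libraries and are uncertain for the same reason as Saa1 and Saa2. Same-numbered mice deviated together between LiKM on the 2 diets (correlations 0.217 to 0.485, at most 0.0735 for other numbers) but not in the other 5 pairs of groups; no label says what a number shares. P-values of the main test set group differences against the spread between mice, with same-numbered LiKM mice taken as independent. Those of the gene pairs come from permuting all 12 libraries across strains and diets.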

Additional observations from a re-analysis of the deposited data

Results flagged for a closer look

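Lbp and Orm1 were singled out because every LiKM liver lay to one side of the LiK mean without ACR and to the opposite side with it. This rule was applied to the 10 genes only, and the share of all genes that meet it was not counted. For Lbp the strain difference was log2 0.2 on the normal diet and -0.49 on ACR, with LiKM above LiK in 3 of 3 livers on the normal diet and below in 3 of 3 on ACR. For Orm1 it was log2 -0.46 untreated and 0.28 with ACR. The difference itself, which is the same as the difference of the diet effects, did not pass for either gene (edgeR adjusted p = 0.297 for Lbp and 0.359 for Orm1). Groups of 3 were not tested for outlying samples.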

How the results depend on the processing

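Over 5 comparisons, the alternatives gave 1100 values for the 10 genes. Of these 1014 kept their direction and side of the threshold, 20 lost the call, 8 gained one and 58 changed sign. No value that changed sign had passed in that comparison in the main fit or in the alternative. Values below are log2 differences, and the causes of these changes were not tested. Library size alone moved the median of all genes to 0.40, 0.14, 0.13, -0.16 and -0.29 in the 2 strain, the 2 diet comparisons and their difference. With DESeq2, the count of all genes called was 2150 in the ACR-fed strain comparison, 397 in the LiK diet comparison, 79 in the LiKM diet comparison and 160 in the difference of the diet effects. There, of the 10 genes 1 passed in the ACR-fed strain comparison and 1 passed in the difference of the diet effects. With library size alone, the count of all genes called was 4831 in the untreated strain comparison and 16 in the difference of the diet effects. There, the sign changed for Saa4 (0.16) in the untreated strain comparison, Orm2 (0.32) in the untreated strain comparison, Saa3 (-0.12) in the difference of the diet effects and Hp (-0.12) in the difference of the diet effects. With no filter on low counts, the count of all genes called was 2 in the difference of the diet effects. There, of the 10 genes 1 passed in the untreated strain comparison. With the identifier prefix as a covariate, the count of all genes called was 16 in the LiK diet comparison and 0 in the difference of the diet effects. There, of the 10 genes 1 passed in the untreated strain comparison and 0 passed in the LiK diet comparison. Also, the sign changed for Saa1 (0.47) in the untreated strain comparison, Saa2 (0.11) in the LiK diet comparison, Saa2 (-0.46) in the difference of the diet effects and Saa3 (-0.14) in the difference of the diet effects. With the replicate block over all 12 libraries, the count of all genes called was 2 in the difference of the diet effects. There, of the 10 genes 1 passed in the untreated strain comparison. Also, the sign changed for Saa2 (-0.93) in the untreated strain comparison. With the replicate block within LiKM, the count of all genes called was 2709 in the untreated strain comparison, 2034 in the ACR-fed strain comparison, 701 in the LiK diet comparison, 9 in the LiKM diet comparison and 260 in the difference of the diet effects. There, of the 10 genes 2 passed in the untreated strain comparison, 3 passed in the ACR-fed strain comparison, 2 passed in the LiK diet comparison, 0 passed in the LiKM diet comparison and 0 passed in the difference of the diet effects. Also, the sign changed for Saa1 (0.68) in the untreated strain comparison, Saa4 (0.47) in the untreated strain comparison and Orm2 (0.60) in the untreated strain comparison. In both strain comparisons this fit sets LiKM mouse 1 against the LiK mice. Its counts and values there are therefore no second estimate of the strain difference. With related genes summed, the sum of Saa1 and Saa2 (-0.13) had the opposite sign to Saa2 alone in the untreated strain comparison. Without the 3 LiKM libraries whose clock genes stand apart, the count of all genes called was 555 in the ACR-fed strain comparison, 624 in the LiK diet comparison, 1 in the LiKM diet comparison and 15 in the difference of the diet effects. There, of the 10 genes 1 passed in the ACR-fed strain comparison. Also, the sign changed for Saa1 (0.12) in the untreated strain comparison, Saa4 (0.15) in the untreated strain comparison, Orm2 (0.02) in the untreated strain comparison, Saa1 (0.44) in the LiKM diet comparison, Saa2 (0.48) in the LiKM diet comparison and Lcn2 (0.23) in the difference of the diet effects. Without untreated and ACR-fed LiKM mouse 1, an alternative chosen after seeing the data, the count of all genes called was 58 in the LiK diet comparison, 7 in the LiKM diet comparison and 22 in the difference of the diet effects. There, the sign changed for Saa2 (-1.35) in the untreated strain comparison, Hp (-0.02) in the untreated strain comparison, Saa1 (-0.74) in the ACR-fed strain comparison, Saa2 (-0.90) in the ACR-fed strain comparison, Hp (-0.01) in the ACR-fed strain comparison and Saa3 (-0.16) in the difference of the diet effects. With 1 library left out at a time, all genes called ranged from 1658 to 3384 in the untreated strain comparison, from 312 to 1695 in the ACR-fed strain comparison, from 0 to 108 in the LiK diet comparison, from 0 to 5 in the LiKM diet comparison and from 0 to 20 in the difference of the diet effects. Of the 10 genes, those called ranged from 1 to 2 in the untreated strain comparison, from 0 to 1 in the ACR-fed strain comparison, from 0 to 2 in the LiK diet comparison, from 0 to 0 in the LiKM diet comparison and from 0 to 0 in the difference of the diet effects. In the untreated strain comparison the sign changed within these ranges: Saa2 from -1.34 to 0.93, Hp from -0.01 to 0.20, Saa1 from -1.5 to 0.17, Orm2 from -0.21 to 0.10, Saa3 from -0.04 to 0.51 and Saa4 from -0.95 to 0.15. In the ACR-fed strain comparison the sign changed within these ranges: Saa1 from -0.73 to 1.45, Saa2 from -0.88 to 1.98 and Hp from 0.00 to 0.53. In the LiK diet comparison the sign changed within these ranges: Hp from -0.04 to 0.43. In the LiKM diet comparison the sign changed within these ranges: Saa1 from -1.67 to 0.91, Saa2 from -2.07 to 1.5, Saa4 from -0.23 to 0.92 and Lcn2 from -0.69 to 1.19. In the difference of the diet effects the sign changed within these ranges: Saa3 from -0.16 to 0.54, Hp from -0.10 to 0.44, Lcn2 from -1.71 to 0.14, Saa2 from -1.30 to 2.24 and Saa1 from -0.35 to 2.20. At 17 to 212 counts a library for Il1rn, sampling limits its precision.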

Other observations

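Orm3, the third orosomucoid gene, was not among the genes examined. It had 0.343 to 9.71 CPM, highest in untreated LiK mouse 3 and next in untreated LiKM mouse 1 (7.98 CPM). Hamp, the hormone that closes the iron exporter of cells, had 776 ± 149 CPM in untreated LiK, 411 ± 67.6 CPM in ACR-fed LiK, 303 ± 115 CPM in untreated LiKM and 238 ± 60.3 CPM in ACR-fed LiKM. The diet difference of Hamp did not pass in either strain (edgeR adjusted p = 0.17 in LiK and 0.9 in LiKM). The fibrinogen chain Fgb had log2 differences of 0.66 in LiK and 0.55 in LiKM with ACR, neither past the threshold (edgeR adjusted p = 0.194 and 0.554).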
